A study of Mus musculus with 8 samples.

Results

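The genes described here are the cadherins and protocadherins of the mouse prefrontal cortex (PFC). They were taken by symbol alone, as every gene of the deposited expression table whose symbol starts with Pcdh or with Cdh and a digit, and 85 of the 15039 genes in the table met this rule. Of these, 56 are clustered protocadherins, with 13 *Pcdha*, 21 *Pcdhb* and 22 *Pcdhg* genes, and 29 are non-clustered, with 18 cadherins and 11 protocadherins. In GENCODE vM39, 94 gene symbols match the rule. The 9 without a value, which are *Pcdha8*, *Pcdha4b*, *Pcdhb1*, *Pcdh12*, *Cdh1*, *Cdh3*, *Cdh16*, *Cdh17* and *Cdh26*, were not analysed here.

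Cadherins are calcium-dependent adhesion molecules that bind mostly to the same cadherin on the neighbouring cell. Classical cadherins hold p120-catenin and beta-catenin on their intracellular tail, and beta-catenin is also the transcriptional messenger of canonical Wnt signaling. The clustered protocadherins lie in a row on a single chromosome, each neuron uses its own small selection of them, and the combination gives the cell a surface identity by which its branches avoid each other. The non-clustered protocadherins of the delta family take part in axon growth, cell sorting and synapse formation, and several are linked to neurodevelopmental disorders.

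The study injected male wild-type C57BL/6NCrljOri mice, aged 6 weeks, on both sides of the PFC with AAV2/1-hsyn-RNF146-eGFP (Rnf146-overexpressing mice, n = 4) or AAV2/1-hsyn-eGFP (eGFP-overexpressing mice, n = 4), and the PFC was dissected 4 weeks later for RNA sequencing. Rnf146 is a ubiquitin ligase that marks Axin, a scaffold of the beta-catenin destruction complex, for degradation, and the question was which transcripts differ once it is in excess. The hsyn promoter drives expression in neurons, whereas the RNA came from all cells of the dissected tissue, and the sequenced Rnf146 mice had been picked for showing both overexpression and a social deficit. Fewer cells of a type and less RNA per cell cannot be told apart in such samples.

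The deposited values are log2 expression values that the authors had normalized and centred within pairs of libraries with the same replicate number, so that each gene holds 4 independent differences, Rnf146 minus eGFP, called pair 1 to pair 4 below. They start from a common floor, so that differences of weakly expressed genes may be compressed, which was not tested. Values are not per transcript length, so levels of single genes are not compared. Percentiles of the mean value, given below for classes of genes, depend on transcript length too. The depth of the libraries is unknown. A gene was called at a Benjamini-Hochberg adjusted p of 0.1 or less in limma fitted with the pair as a block. The p-values of that fit are called blocked, and those of the fit that takes the 8 values as independent libraries unblocked. Because the values of a pair mirror each other, the unblocked fit counts each difference 2 times and its p-values are too small, so its calls are given for comparison only. *Rnf146* itself read 10.35, 10.50, 10.43 and 10.47 in the eGFP libraries and 13.17, 13.01, 13.09 and 13.05 in the Rnf146 libraries, a mean difference of 2.64 ± 0.13 (SD, n = 4 pairs), and every library matched its label. These values sum reads of the vector and of the endogenous gene.

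Markers of other regions differed between the libraries, and their part in the results below was not tested. The summed level is given here as the mean log2 value of a list in a library. For all 10 striatal markers it was 9.91 to 10.62 in the eGFP and 10.52 to 11.23 in the Rnf146 libraries, with differences of -0.10, 1.32, 0.72 and 0.27 in pairs 1 to 4. The 6 of 10 septal markers with a value ran from 9.23 to 9.37 and from 9.68 to 9.81. Called as higher were 5 of them (*Zic1*, *Zic2*, *Zic4*, *Slc5a7* and *Isl1*), while *Trpc6* had a mean of -0.06 and was not called. *Chat*, *Slc18a3*, *Lhx8* and *Nkx2-1* had no value. Oligodendrocyte markers (8 of 8) differed by -0.14, 0.49, 0.97 and 0.55. None of the striatal or oligodendrocyte markers was called, and their means over the pairs were 0.55 ± 0.61 and 0.47 ± 0.46. Cortical excitatory markers (10 of 10) ran from 11.58 to 11.71 and from 11.43 to 11.56, and 2 of them were called as lower. A mean above 0 was seen in 2 of the 10, *Foxp2* (0.28, not called) and *Rorb* (0.002). Interneuron markers (7 of 7) ran from 11.02 to 11.08 and from 11.17 to 11.23, and went both ways: *Gad1*, *Gad2* and *Slc32a1* were called as higher, and the 4 others had means below 0, of which *Vip* (-0.23) and *Lhx6* (-0.11) were lower in all pairs but not called. For microglia (7 of 7) the mean difference was -0.16 ± 0.09, with none called. For the 3 of 6 ependymal markers with a value it was 0.14 ± 0.06, with 1 called. For astrocytes, oligodendrocyte precursors, endothelial cells and mural cells it lay between -0.03 and 0.04, with none called.

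None of the 85 cadherin and protocadherin genes was called in limma with the replicate block, with adjusted p-values from 0.11 to 1.00. Over all genes 188 were called, or 1.25%. At an unadjusted p below 0.05 there were 9 of the 85 genes (10.6%), against 12.4% of all genes. In the unblocked fit 13 were called (15.3%), 7 higher and 6 lower, against 21.5% of all genes. All 4 pairs had the same direction, so that the groups did not overlap, for 10 of the 85 genes (11.8%), against 20.6% of all genes. Of these, 6 were higher (7.06%, against 10.4% of all genes) and 4 lower (4.71%, against 10.2%). The mean difference was above 0 for 49 genes (57.6%, against 50.5%). Each of these shares was below that of the table, except the last.

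The mean differences were small in absolute terms. They ran from -0.18 for *Pcdh1* to 0.23 for *Pcdh20*, no gene exceeded 0.25 in either direction, and the median absolute difference was 0.056, against 0.049 over all genes. The called genes of the table had a median absolute difference of 0.340 and none below 0.205. Spread between pairs exceeded the mean difference in 74 of the 85 genes. The share over all genes was not counted, so this count is not a trait of the group. The 95% intervals held 0 for 76 genes and lay within 0.3 of 0 for 79 genes, with an outermost lower bound of -0.42 for *Pcdhgc4* and an outermost upper bound of 0.38 for *Pcdhgb7*.

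**Figure D1:**
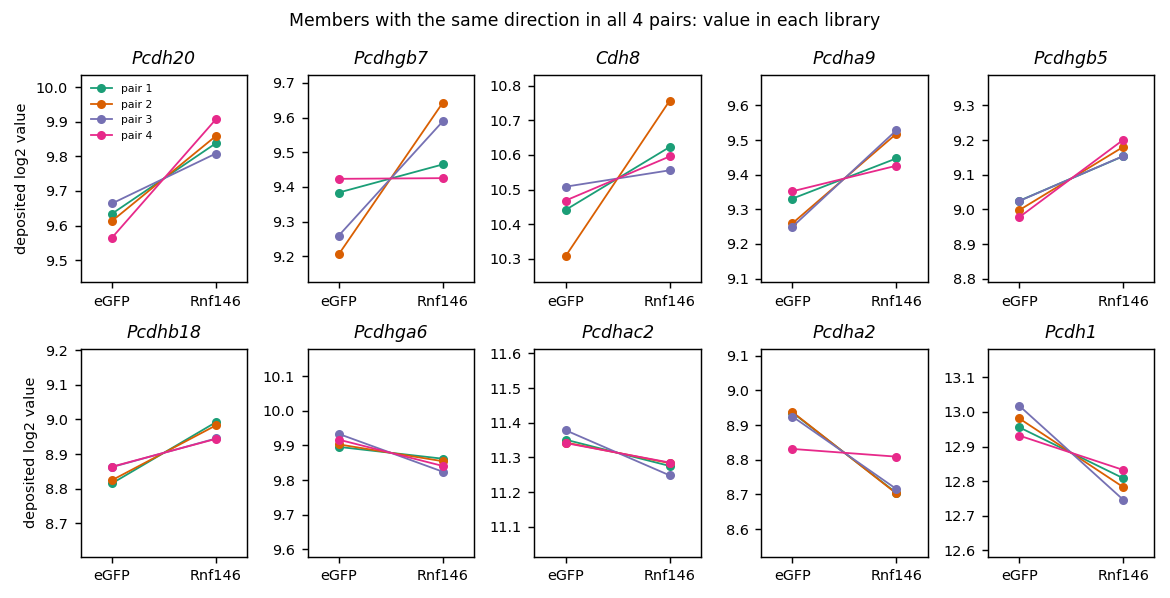
Deposited log2 value (vertical axis) of the 10 cadherin and protocadherin genes with the same direction in all 4 pairs, in the eGFP and Rnf146 libraries; each line joins the 2 libraries of a pair, and each panel has its own range of equal height. The lines mirror each other because the values are centred within pairs, and the groups do not overlap in any panel, from *Pcdh20* (mean difference 0.23) to *Pcdh1* (-0.18).

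Among the classical cadherins, the neural type I cadherin *Cdh2* (N-cadherin, of neuronal adherens junctions and synapses) did not separate the groups. Its values were 11.90, 11.89, 12.005 and 11.94 in the eGFP libraries and 11.96, 11.98, 11.86 and 11.93 in the Rnf146 libraries. The groups overlapped, and the mean difference was -0.003 ± 0.101 (95% interval -0.12 to 0.11, adjusted p = 0.987). *Cdh4* (R-cadherin) and *Cdh15* (M-cadherin, of muscle), the other type I genes with values, had mean differences of 0.000 and 0.078. In pair 3 all 3 type I genes were lower, and in pair 1 all 3 were higher.

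The 13 type II cadherins, which sort neurons and match their synaptic partners, went both ways, with a class mean of 0.003 ± 0.077 over the pairs. *Cdh8*, found at synapses of particular cortical circuits, was their highest gene and the only cadherin with 1 direction in all 4 pairs. It read 10.44, 10.31, 10.51 and 10.47 in the eGFP libraries and 10.62, 10.76, 10.56 and 10.60 in the Rnf146 libraries. Most of its mean difference of 0.20 ± 0.17 came from pair 2, where the libraries differed by 0.45, against 0.05 in pair 3. The adjusted p was 0.274 blocked and 0.041 unblocked. *Cdh8* (ENSMUSG00000036510) lies on chromosome 8 from 99751103 to 100144308, minus strand (GRCm39). *Cdh24* stood at the other end with -0.15, from differences of -0.36, -0.15, -0.12 and 0.04, and an adjusted p of 0.420.

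*Cdh11*, a type II cadherin of mesenchymal cells and neurons, differed by -0.37, -0.06, 0.10 and -0.18 in pairs 1 to 4. Its mean of -0.13 ± 0.20 was smaller than the spread. *Cdh5* (VE-cadherin) is the adhesion molecule of endothelial junctions. It differed by -0.11, 0.01, 0.03 and 0.07, a mean of 0.001 ± 0.076 beside endothelial markers whose mean difference was -0.02 ± 0.10. *Cdh13* (T-cadherin), which is tied to the membrane by a lipid anchor and has no catenin-binding tail, ranged from 0.18 in pairs 1 and 2 to -0.45 in pair 3. The latter was the lowest difference of any of the 85 genes in that pair, and without pair 3 the mean of *Cdh13* turned from -0.02 to 0.13.

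Pair 3 differed from pair 1 in both types. In that pair 11 of 13 type II genes were higher in the Rnf146 library, with *Cdh19* the highest at 0.34, and none of 3 type I genes was, whereas in pair 1 the counts were 4 of 13 and 3 of 3. Class means of the type II genes were -0.08, 0.02, 0.10 and -0.02 in pairs 1 to 4 and those of the type I genes 0.07, 0.11, -0.17 and 0.10. The 2 mice of pair 3 also had the largest difference in oligodendrocyte markers (0.97) and the smallest in cortical excitatory markers (-0.01). Pairs 2 and 4 were not in the same order in the oligodendrocyte markers (0.49 and 0.55) and the type II means (0.02 and -0.02). A link was not tested.

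**Figure D2:**
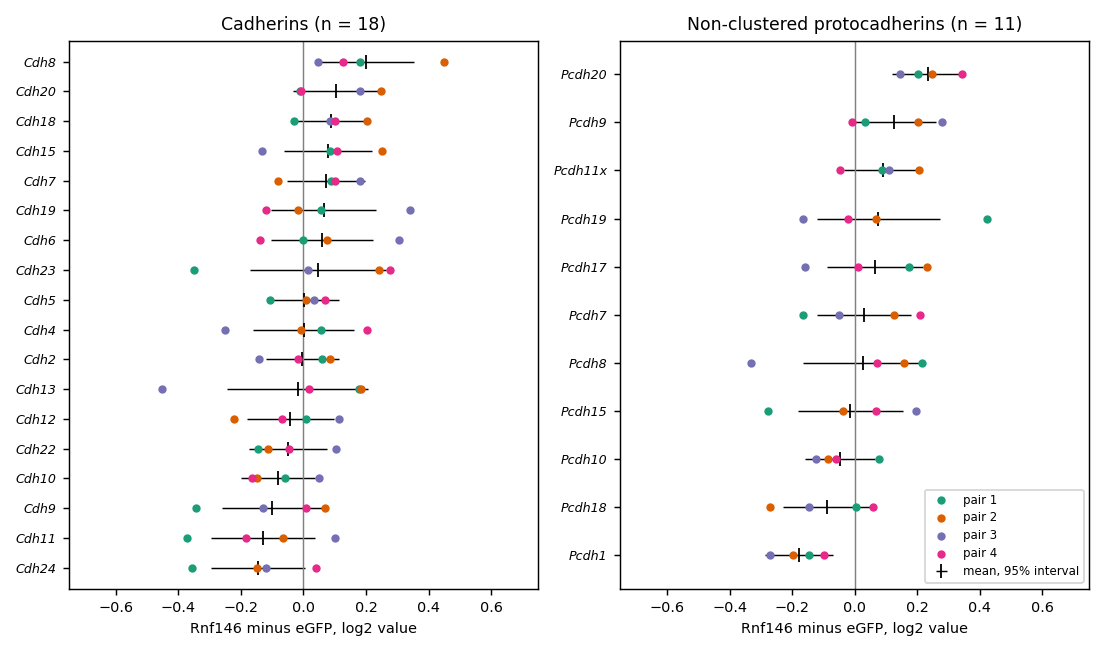
Differences, Rnf146 minus eGFP (horizontal axis, log2 value), of the 18 cadherins (left) and 11 non-clustered protocadherins (right), ordered by mean; points are the 4 pairs, ticks the means and horizontal lines limma's 95% intervals with the replicate block. Most lines cross 0, with *Pcdh20* and *Cdh8* to its right and *Pcdh1* to its left, and several genes, such as *Cdh13* and *Pcdh8*, have 1 pair far from the others.

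Of the non-clustered protocadherins, *Pcdh20* had the largest mean difference of all 85 genes. Its product helps neurons of cortical layer IV to take their position. The eGFP libraries read 9.63, 9.61, 9.66 and 9.57 and the Rnf146 libraries 9.84, 9.86, 9.81 and 9.91, so that the lowest Rnf146 library lay above the highest eGFP library. With differences of 0.20, 0.25, 0.14 and 0.34, the mean was 0.23 ± 0.08 (95% interval 0.12 to 0.35). The adjusted p was 0.112 blocked and 0.0028 unblocked. In a blocked fit with limma's array weights it was 0.069, the lowest value with a block for any gene of the group. *Pcdh20* (ENSMUSG00000050505) lies on chromosome 14 from 88694835 to 88708832, minus strand (GRCm39). It shares 0.039% of its 31-base words with another gene of the group and 3.33% with any other gene.

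*Pcdh1* had the lowest mean difference of all 85 genes. It belongs to the delta1 protocadherins, which carry an additional extracellular cadherin repeat relative to the delta2 genes. Values were 12.96, 12.98, 13.02 and 12.93 in the eGFP libraries and 12.81, 12.78, 12.75 and 12.83 in the Rnf146 libraries, again without overlap. The mean difference was -0.18 ± 0.07 (95% interval -0.29 to -0.07), with adjusted p-values of 0.176 (blocked) and 0.0057 (unblocked). The gene (ENSMUSG00000051375) lies on chromosome 18 from 38318963 to 38345869, minus strand, beyond the end of the protocadherin clusters. The 3 other delta1 genes with values were on the opposite side of 0, *Pcdh9* at 0.13, *Pcdh11x* at 0.09 and *Pcdh7* at 0.03, each with 1 or more pairs in the other direction.

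The delta2 protocadherins *Pcdh8*, *Pcdh10*, *Pcdh17*, *Pcdh18* and *Pcdh19* belong to a family of which several members bind the actin-regulating WAVE complex with their tail. *Pcdh10* read 12.79, 12.87, 12.89 and 12.86 in the eGFP libraries and 12.86, 12.78, 12.76 and 12.80 in the Rnf146 libraries, a mean difference of -0.05 ± 0.09. *Pcdh19*, an X-linked gene whose variants cause an epilepsy with intellectual disability, read 10.96, 11.14, 11.26 and 11.18 and then 11.38, 11.21, 11.09 and 11.16. Its mean of 0.08 ± 0.25 rested on pair 1 (0.42), and without that pair it was -0.04.

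All 5 delta2 genes were higher in pair 1 and all 5 were lower in pair 3. Their class means were 0.18, 0.02, -0.18 and 0.01 in pairs 1 to 4, so that the average over pairs was 0.006 with an SD of 0.148, the widest of any class here. The mean over all genes of the table was between -0.003 and 0.010 in each pair, but a mean over 15039 genes is no yardstick for a mean over 5. The 3 type I cadherins had an SD of 0.134. In pairs 2 and 4 the delta2 genes were divided, with 3 of 5 higher in each, and in pair 1 *Pcdh18* was only 0.0046 above 0.

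Clustered protocadherins occupy chromosome 18 from 37063237 to 37975014 (GRCm39), in the order *Pcdha*, *Pcdhb*, *Pcdhg*. Each *Pcdha* and *Pcdhg* transcript joins its own first exon to 3 exons common to its cluster, giving 4 exons in the canonical transcript, while each *Pcdhb* transcript has a single exon. The share of a transcript's 31-base words that also occur in another of the 85 genes had a median of 62.6% for *Pcdha*, from 48.4% for *Pcdhac2* to 64.9% for *Pcdha1*. For *Pcdhg* the median was 48.1%, from 41.2% for *Pcdhgc4* to 68.4% for *Pcdhga4*. For *Pcdhb* it was 12.01%, from 4.55% for *Pcdhb14* to 22.5% for *Pcdhb12*, and for non-clustered genes the highest value was 0.276%, for *Cdh20*. Words shared with any other gene of GENCODE vM39 made up more in some genes, such as 97.8% in *Pcdha4*, 74.6% in *Pcdha7* and 7.58% in *Cdh11*. Reads from the common exons cannot be assigned to 1 gene by sequence and are split by Salmon's estimate, so that how they are divided among single *Pcdha* or *Pcdhg* genes is uncertain.

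**Figure D3:**
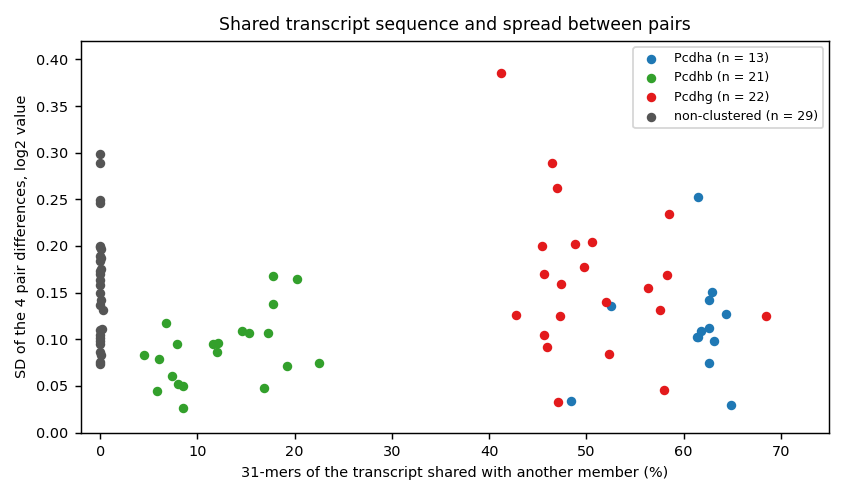
SD of the 4 pair differences (vertical axis, log2 value) against the share of a transcript's 31-base words found in another of the 85 genes (horizontal axis, percent), 1 point per gene. *Pcdhb* genes lie at low shares with a median SD of 0.087, *Pcdha* and *Pcdhg* genes at shares above 40% with median SDs of 0.109 and 0.157, and the non-clustered genes at 0% with a median SD of 0.158.

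Within the *Pcdha* cluster, the largest mean differences were opposite in direction. *Pcdha9* read 9.33, 9.26, 9.25 and 9.35 in the eGFP libraries and 9.45, 9.52, 9.53 and 9.43 in the Rnf146 libraries, a mean difference of 0.18 ± 0.10 (adjusted p = 0.220 blocked, 0.014 unblocked). *Pcdha2* read 8.94, 8.94, 8.92 and 8.83 and then 8.70, 8.70, 8.72 and 8.81. Its mean was -0.17 ± 0.10 (adjusted p = 0.221 blocked, 0.015 unblocked), and pair 4 differed by only -0.02. Over the 13 genes, 5 had a mean above 0, and the class mean was -0.02 ± 0.03, lowest in pair 4 (-0.07).

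The *Pcdhb* genes were the most even of the 3 clusters. Their median absolute difference was 0.014, against 0.049 over all genes, and their class mean was 0.02 ± 0.04, with 14 of 21 genes above 0. Their values are also low, with a median percentile of 16.2 among all genes. Whether closeness to the floor made their differences small was not tested. *Pcdhb18* alone had the same direction in all pairs, with 8.82, 8.82, 8.86 and 8.86 in the eGFP libraries and 8.99, 8.98, 8.94 and 8.94 in the Rnf146 libraries. The difference was 0.12 ± 0.05 (adjusted p = 0.308 blocked, 0.012 unblocked). Its transcript shares 8.56% of its 31-base words with another of the genes. *Pcdhb6* had a slightly larger mean of 0.13, but pair 3 was lower, and *Pcdhb9* was lowest at -0.04.

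In the *Pcdhg* cluster 3 genes had the same direction in all pairs, 2 higher and 1 lower. *Pcdhgb5* was the steadiest of the higher genes, with 9.02, 8.998, 9.02 and 8.98 in the eGFP libraries and 9.15, 9.18, 9.15 and 9.20 in the Rnf146 libraries. The mean was 0.17 ± 0.05 (adjusted p = 0.192 blocked, 0.0033 unblocked), although its transcript shares 58.0% of its 31-base words with another of the genes. *Pcdhgb7* had the larger mean of 0.21 ± 0.20, but its libraries were nearly equal in pair 4, where 9.42 met 9.43, and 0.44 apart in pair 2. Its adjusted p was 0.303 blocked and 0.055 unblocked. *Pcdhga6* went the other way by small and similar steps of -0.03, -0.05, -0.11 and -0.08, a mean of -0.07 ± 0.03 with adjusted p-values of 0.597 (blocked) and 0.066 (unblocked).

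Pair 2 carried most of the *Pcdhg* average. The class means were 0.02, 0.14, -0.004 and -0.03 in pairs 1 to 4, and 17 of the 22 genes were higher in pair 2, led by *Pcdhga1* at 0.48, against 9 in pair 3. Pair 2 also had the largest difference in striatal markers, which was -0.10, 1.32, 0.72 and 0.27 in pairs 1 to 4. The order of the other pairs was not the same in the 2 sets, and a link was not tested. Over the pairs the class mean was 0.03 ± 0.07, with 13 of 22 genes above 0.

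**Figure D4:**
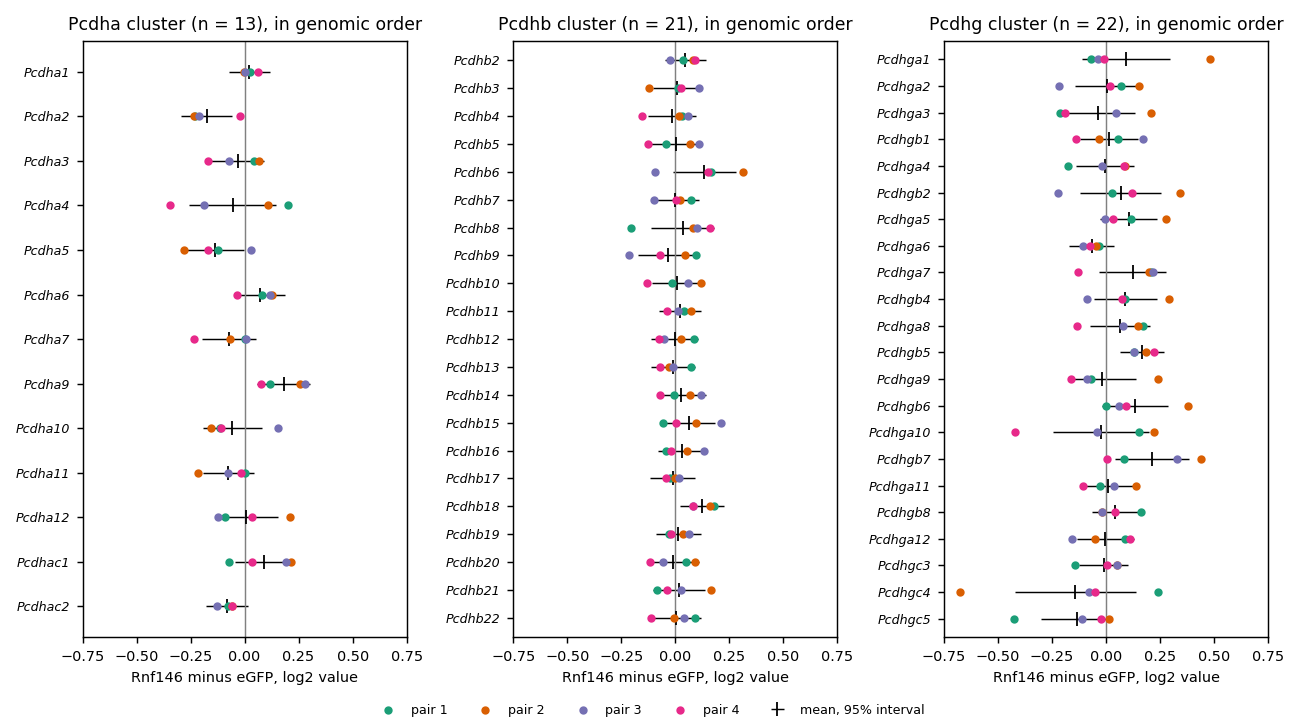
Differences, Rnf146 minus eGFP (horizontal axis, log2 value), of the clustered protocadherins in genomic order within each cluster; points are the 4 pairs, ticks the means and horizontal lines limma's 95% intervals with the replicate block. Higher and lower genes lie intermingled along each cluster; the *Pcdhb* points stay closest to 0, and the *Pcdhgc4* point of pair 2 (-0.68) lies farthest from it.

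The C-type genes at the ends of the *Pcdha* and *Pcdhg* clusters are, unlike the other clustered genes, used by many neurons constitutively. All 5 had values and are named here after these had been seen, except *Pcdhac2*. *Pcdhac2*, which spaces the axons of serotonergic neurons, read 11.35, 11.34, 11.38 and 11.34 in the eGFP libraries and 11.28, 11.28, 11.25 and 11.29 in the Rnf146 libraries. Its mean difference was -0.08 ± 0.03, with adjusted p-values of 0.488 (blocked) and 0.033 (unblocked). *Pcdhgc3*, whose product binds Axin1 and dampens Wnt signaling, differed by -0.14, 0.05, 0.05 and 0.00, a mean of -0.01 ± 0.09 (95% interval -0.12 to 0.10).

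*Pcdhgc4*, on which neuronal survival depends, had the widest spread of all 85 genes, with pair differences of 0.24, -0.68, -0.08 and -0.05 and an SD of 0.385. *Pcdhgc5* differed by -0.43, 0.01, -0.11 and -0.02, and *Pcdhac1* by -0.07, 0.21, 0.19 and 0.03. As a class, the C-type genes had means of -0.10, -0.09, -0.02 and -0.02 in pairs 1 to 4, with an average of -0.06 ± 0.04. Single genes set these means, since 1, 3, 2 and 2 of the 5 genes were higher in pairs 1 to 4, and without *Pcdhgc4* the mean of pair 2 was 0.05 and the average -0.03 ± 0.10. The 30 other *Pcdha* and *Pcdhg* genes averaged 0.02 ± 0.07. The difference between these classes was -0.12, -0.21, -0.02 and 0.03, a mean of -0.08 ± 0.11 that was smaller than its spread over the pairs.

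Clustered and non-clustered genes did not differ in their average beyond the spread between pairs. The 56 clustered genes had means of 0.01, 0.08, 0.01 and -0.04 in pairs 1 to 4 and the 29 non-clustered genes -0.02, 0.06, -0.01 and 0.03. The clustered minus non-clustered difference was 0.03, 0.02, 0.01 and -0.07, with a mean of -0.001 ± 0.044. It was positive in pairs 1 to 3, where its mean was 0.021, and only pair 4 turned it. Genes within a class share their libraries and, in the clusters, their exons, so that this comparison is given with no test.

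The classes differed more in how widely single genes were scattered than in their averages, but not in every cluster. Absolute mean differences had a median of 0.037 in the clustered and 0.073 in the non-clustered genes, and SDs over the pairs a median of 0.109 and 0.158. By cluster, the median absolute differences were 0.073 for *Pcdha*, 0.014 for *Pcdhb* and 0.066 for *Pcdhg*. The median SDs were 0.109, 0.087 and 0.157. Only *Pcdhb* was thus far below the non-clustered genes in both measures. The deposited values, which are not corrected for transcript length, differed alongside. Their median percentile in the table was 30.0 for the clustered and 59.0 for the non-clustered genes, and 19 of the 21 genes within the lowest 25% of the table were clustered. All 4 pairs had the same direction in 7 of 56 clustered genes (12.5%) and in 3 of 29 non-clustered genes (10.3%), both below the 20.6% of the whole table. Unblocked, 8 clustered (14.3%) and 5 non-clustered genes (17.2%) were called, against 21.5% of all genes.

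**Figure D5:**
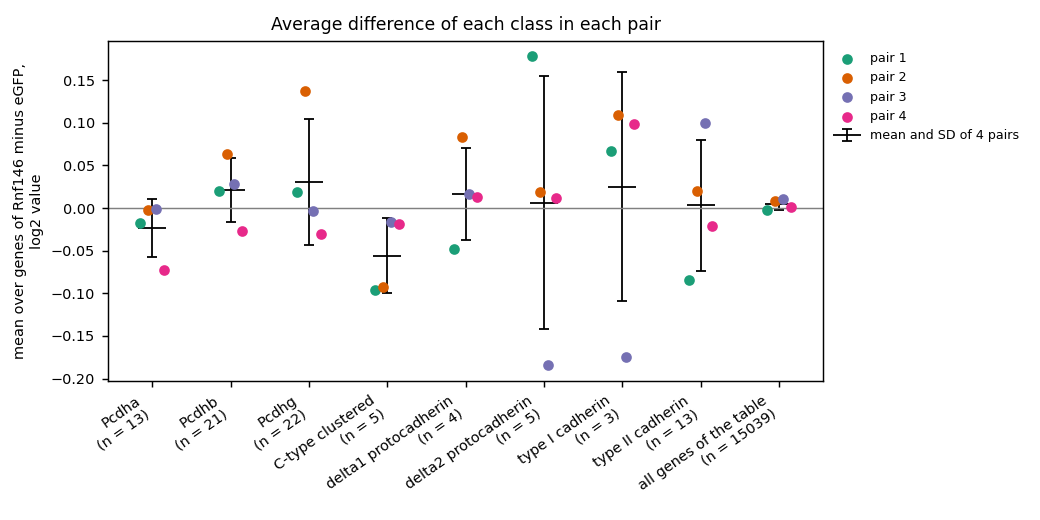
Mean difference, Rnf146 minus eGFP (vertical axis, log2 value), over the genes of each class in each of the 4 pairs; points are pairs, horizontal ticks their mean and bars the SD of the 4 pairs. The classes lie around 0, the C-type means are below 0 in each pair (average -0.06, and 0.05 in pair 2 without *Pcdhgc4*), and the delta2 protocadherins range from 0.18 in pair 1 to -0.18 in pair 3.

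The partners of the cadherins and other genes of the cadherin superfamily were read from lists of 68 genes, of which 61 had values. With the block, 1 of the 61 (1.64%) was called, as higher, against 1.25% of all genes, and 7 (11.5%) had an unadjusted p below 0.05, against 12.4%. A mean above 0 was seen in 30 genes, and the same direction in all pairs in 16 (26.2%), against 20.6%. In the unblocked fit 12 were called (19.7%, against 21.5%), 5 higher and 7 lower. The median difference over the 61 genes was -0.006, against 0.001 over all genes. The 61 genes include 15 other genes of the cadherin superfamily, which are not partners and weigh on these counts. These 15 held 7 of the 16 genes with the same direction (46.7% of the 15). They also held 5 of the 7 with an unadjusted p below 0.05 in limma with the block (33.3%), and 6 of the 12 unblocked calls (40%).

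None of the 9 catenins was called, and their mean difference was 0.02 ± 0.07. Named after their values were seen, *Ctnnd1* (p120-catenin) was the lowest at -0.11 and lower in all 4 pairs (adjusted p = 0.439 blocked, 0.066 unblocked), and *Pkp4*, a relative of p120-catenin, was higher in all 4 pairs at 0.07. *Ctnnb1* (beta-catenin) read 13.35, 13.52, 13.52 and 13.41 in the eGFP libraries and 13.60, 13.43, 13.42 and 13.53 in the Rnf146 libraries. Pairs 1 and 4 were higher and pairs 2 and 3 lower, with a mean of 0.04 ± 0.17 (adjusted p = 0.845). *Ctnna2*, the neuronal alpha-catenin, differed by 0.05 (adjusted p = 0.710), and *Ctnnd2*, the neuronal delta-catenin, by -0.06 (adjusted p = 0.698), both in limma with the block.

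The other lists of partners had no blocked call either. None of 8 junction partners, such as nectins and afadin, none of 6 proteins of cadherin shedding, such as *Adam10* and the presenilins, and none of 11 regulators of the protocadherin clusters, such as *Ctcf* and cohesin, was called. Their mean differences were 0.004 ± 0.063, -0.03 ± 0.02 and 0.01 ± 0.04. Of 12 effectors of protocadherin tails none was called either, with *Cyfip1*, a subunit of the WAVE complex, highest at 0.22 (adjusted p = 0.140 blocked, 0.0068 unblocked). Unblocked, 4 of these 12 were called (33.3%, against 21.5% of all genes), and 4 had the same direction in all pairs (33.3%, against 20.6%). For junction partners, shedding and cluster regulators the unblocked calls were 1, 0 and 0, and those with the same direction 1, 0 and 2.

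The 1 called gene was among the 15 other genes of the cadherin superfamily, and it is not an adhesion molecule. *Ret*, a receptor tyrosine kinase for glial cell line-derived neurotrophic factor that has cadherin-like repeats in its outer part, read 9.04, 8.93, 9.12 and 8.95 in the eGFP libraries and 9.48, 9.59, 9.40 and 9.57 in the Rnf146 libraries. It rose by 0.50 ± 0.18 and was higher in 4 of 4 pairs (adjusted p = 0.024 in limma with the block). Without pair 2 its adjusted p was 0.108 and without pair 4 it was 0.173. At the other end of the list, *Celsr3*, a seven-pass cadherin of axon tract formation, differed by -0.23, -0.05, -0.48 and -0.31 (adjusted p = 0.156 blocked, 0.017 unblocked).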

How the data were processed

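RNA from the PFC of 4 eGFP- and 4 Rnf146-overexpressing mice was sequenced after TruSeq stranded mRNA library preparation. The authors used Cutadapt for trimming and Salmon 1.9.0 for transcript quantification against GENCODE vM30 (GRCm39). DESeq2 is named in the submitters' processing notes without a role. The deposited values are log2 values (7.86 to 18.8 over 15039 genes) that the authors had normalized and centred within same-numbered pairs: for each gene the sum of a pair is identical across the 4 pairs (largest spread 1.4e-13), which is also the check of the pairing. The normalization and the centring are not described in the sources used here. No count test could be run, and depth is unknown. No per-sample column was left unused.

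Groups and replicate numbers came from the sample titles. The sources used here do not say whether paired mice had a cage, a day or a batch in common. Differences were fitted over all 15039 genes with limma 3.58.1 in R 4.3.3 (lmFit, eBayes with trend, replicate number as a block), with Benjamini-Hochberg adjustment. The threshold for a call was an adjusted p of 0.1. The block leaves 3 residual degrees of freedom, which is what 4 independent differences hold. The fit without it counts 6 and therefore gives p-values that are too small. With 4 pairs, exact sign flipping has a smallest two-sided p of 0.125, so it was not used. Classes are given as the mean over genes in each pair, with the SD of the pairs and no p. Positions, canonical transcripts and shared 31-base words came from GENCODE vM39 on the same build. The fit was tested on simulated data.

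The genes, lists and tests were chosen with earlier results of these data known. Named are called genes, up to 5 genes per direction and class (clustered, non-clustered protocadherins, cadherins) with the same direction in all 4 pairs, 7 genes known from neural tissue, and the ends of ranges. Any other gene given with a value was chosen after its values were seen. That holds for the C-type genes other than *Pcdhac2*, the remaining type I and delta1 genes, *Cdh24*, *Cyfip1*, *Celsr3*, *Ctnnd1* and *Pkp4*. It also holds for 3 of the 4 genes with a pair that stood apart and for single marker genes given with a mean. Alternatives were no block, quantile normalization, median centring, removal of the lowest 25% of genes by mean value, no trend, robust variances, array weights, an adjusted p of 0.05, class medians, each pair left out, and, chosen after seeing the data, the class comparison without genes that share more than 50% of their 31-base words. Python 3.11.15 with pandas 2.3.3 was used for tables.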

Additional observations from a re-analysis of the deposited data

Results flagged for a closer look

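In 4 of the 85 genes (4.71%) 1 pair stood apart from the other three by Dixon's ratio, the gap to the nearest pair divided by the whole range (95% critical value for 4 values). Chance flags about 1 in 20 genes, and the share over all genes of the table was 5.39%. For *Pcdhga7* the ratio was 0.936, with differences of 0.21, 0.20, 0.22 and -0.13 in pairs 1 to 4. For *Pcdhga1* it was 0.891, with -0.07, 0.48, -0.04 and -0.01. For *Pcdha2* it was 0.879, with -0.23, -0.23, -0.21 and -0.02. For *Pcdha10* it was 0.848, with -0.11, -0.16, 0.15 and -0.11.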

How the results depend on the processing

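The count of called cadherin and protocadherin genes stayed at 0 under quantile normalization, median centring, removal of the lowest 25% of genes, no trend, robust variances, an adjusted p of 0.05 and each pair left out. It was 13 with no replicate block, a fit that counts each pair difference 2 times, and 1 with array weights (*Pcdh20*, 0.25). Of the 61 partner and other superfamily genes, 12 were called with no replicate block, and with a pair left out the count was 0 to 1. The genes with 1 direction in all remaining pairs numbered 16 to 27 with a pair left out, when fewer pairs have to match. The highest count, without pair 3, was 31.8% of the 85 genes, against 33.8% of all genes. Whichever pair was left out, the share among the 85 genes stayed below that of all genes. Means near 0 changed sign: *Cdh5* was -0.0079 under quantile normalization, and with a pair left out *Cdh5* ran from -0.022 to 0.037, *Cdh2* from -0.033 to 0.042, *Cdh13* from -0.086 to 0.13, *Pcdh19* from -0.040 to 0.16 and *Ctnnb1* from -0.024 to 0.093. The clustered minus non-clustered difference was between -0.011 and 0.021 in all alternatives tried. The causes of these shifts were not tested. With 4 pairs and unknown depth, differences under about 0.13, the median half-width of the unadjusted 95% interval, could not be resolved for a typical gene. The smallest absolute difference of a called gene of the table was 0.205, which is not a limit of detection. *Pcdh20* (0.23) and *Pcdhgb7* (0.21) lay above it and were not called. The outermost bounds of the intervals of the 85 genes were -0.42 and 0.38. The lack of calls therefore does not exclude differences above 0.205 in single genes either.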
